A study of Mus musculus with 19 samples.

Results

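The baseline described here is the liver transcriptome of the 7 mice labelled WT + AAV-Cre, out of 19 mice in the series. They were chosen by their genotype label and carry the numbers 1, 2, 3, 9, 11, 12 and 13 in the sample titles. The other mice are labelled Het + AAV-Cre (6 mice, numbers 4, 6, 7, 14, 19 and 20) and Homo + AAV-Cre (6 mice, numbers 8, 10, 15, 16, 17 and 18). The genotype is at Pkd1, the gene of polycystin-1, and the series text calls the 3 genotypes littermates. Every mouse, WT included, received AAV-Cre, an adeno-associated virus that carries Cre recombinase, and 3 months of Western diet plus carbon tetrachloride (CCl4), a liver toxin. All 7 livers therefore met the diet, the toxin and Cre, and the series as used here holds no untreated liver to set them against. How diseased each liver was is not measured here. The labels do not give the promoter that drives Cre, the part of Pkd1 that is altered, the sex, the age, the litter or a batch, and they do not say what the title numbers stand for. Total RNA of whole liver was sequenced, 1 library per mouse. A difference in a cell type's RNA can therefore come from fewer cells or from less RNA per cell, and bulk values cannot tell these apart.

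The liver makes most proteins of the blood plasma, packages fat into lipoproteins, makes bile acids and clears foreign compounds, and hepatocytes carry out nearly all of this. In steatohepatitis, fat stored in hepatocytes is accompanied by inflammation and by scar formation, in which stellate cells turn into matrix-producing myofibroblasts and macrophages collect. Hepatocyte genes also follow feeding, time of day and growth hormone, so that mice of one group can differ in them.

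The WT libraries held 33.1 to 39.9 M counts (M, 1000000 counts). CPM is the count of a gene scaled to the library size, per 1000000 counts, with library sizes adjusted by TMM, and ± is the SD over the 7 mice unless named otherwise. A second scale, called the level per kb, divides each gene's counts by its exon length and scales the sum to 1000000. An order given by CPM holds for that scale alone. At a mean of at least 1 CPM, 13186 genes were found, 7639 of them at 10 CPM or more and 117 at 1000 CPM or more. The liver label was checked on 6 hepatocyte markers, which were between 614 CPM (Serpina1a, a protease inhibitor of plasma) and 9687 CPM (Alb, albumin). Of the 8 markers of other organs (pancreas, fat and muscle), Cela1 was highest at 1.93 ± 0.69 CPM. Prss2 and Pnliprp1 of pancreas and Adipoq of fat had no count in any of the 7 libraries.

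A small set of genes carried the liver's output. The 370 highest genes held 50% of the counts. Apoe alone, the apolipoprotein by which remnant lipoproteins are taken up, held 2.62 ± 0.09% (n = 7). The 10 highest genes held 11.8 ± 0.50% and the 30 highest 20.1 ± 0.45%. These shares are nearly the same in each mouse: for the 30 highest genes they ran from 19.6% to 20.8%.

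Apoe was at 26649, 26098, 27969, 25816, 25766, 25038 and 26045 CPM in mice 1, 2, 3, 9, 11, 12 and 13, a mean of 26197 ± 918. It was the highest gene in every mouse and on both scales, with a level per kb of 41291 ± 1362. Another 3 lipoprotein genes stood among the 30 highest. Apob, the scaffold of very low density lipoprotein, was at 9476 ± 324 CPM, Apoc1 at 5798 ± 411 and Apoa2 at 3294 ± 183. Per kb, the small Apoc1 and Apoa2 stood at ranks 2 and 5 (30302 and 17767), whereas Apob, with 13934 bases of exon, dropped from rank 5 to rank 43.

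Secreted plasma proteins formed the next group. Albumin (Alb) was at 9687 ± 1220 CPM, with mouse 9 lowest at 7894 and mouse 3 highest at 11358. The carrier fetuin-A (Ahsg) was at 7188 ± 435 CPM and the selenium carrier Sepp1 at 6990 ± 473. C3, the central complement component, was at 4051 ± 657, the fibrinogen chain Fga at 2770 ± 367 and the protease inhibitor Mug1 at 3129 ± 454. The hormone Igf1 was at 3201 ± 569 CPM. Leaving out any 1 mouse kept 29 or 30 of the 30 genes in the set.

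Fn1, the adhesive matrix protein fibronectin, which hepatocytes also secrete into plasma, had rank 3. It was at 15022 ± 826 CPM (n = 7), between 13907 in mouse 11 and 16014 in mouse 1. The lipogenic enzyme Scd1, which makes monounsaturated fatty acids, ranked sixth at 9079 ± 1962 CPM. It was at 10620, 6990, 9232, 9180, 6175, 9503 and 11856 CPM in mice 1, 2, 3, 9, 11, 12 and 13, the widest spread of the 30 (CV 21.6%). Mlxipl, the carbohydrate-sensing factor ChREBP that drives such enzymes, was at 3395 ± 515 CPM. Eif4g1, a translation initiation factor, had the narrowest spread of the 30 (3317 ± 104 CPM, CV 3.15%).

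In all, 5 mitochondrially encoded genes were among the 30 highest: CYTB (8682 ± 975 CPM), ND2 (7809 ± 738), ND5 (7694 ± 899), COX1 (7291 ± 520) and ND1 (5043 ± 373). They encode subunits of the respiratory chain. The 4 genes that follow each other as COX2, ATP8, ATP6 and COX3 on the mitochondrial genome were almost without counts. COX2, ATP8 and ATP6 had at most 1 count in any WT library, and COX3 had none. The short ND4L was at 1.26 ± 0.27 CPM and ND4, which overlaps it, at 2171 ± 144. How the counting treated reads that match several places or overlap several genes is not given in the sources used here, so that the mitochondrial share below covers only the genes that received counts.

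The rest of the ranking changed with gene length. Zbtb20, a repressor known in liver, was second by CPM (16999 ± 2550), with mice 12 and 13 at 20415 and 20647 and the other mice between 14221 and 17065. Its 27143 bases of exon put it at rank 50 per kb. Dst, a cytoskeletal linker with 32103 bases of exon, went from 2968 ± 250 CPM to rank 487, Huwe1, a ubiquitin ligase, to rank 152, and Ncor1, a nuclear corepressor, to rank 73. Ptprd, a receptor phosphatase, went from rank 13 at 5813 ± 562 CPM to rank 57. On the per kb scale Fabp1, the fatty acid carrier of the hepatocyte, rose to rank 11 (13357) and Mup3, a major urinary protein, to rank 15 (6789). Of the 30 highest genes by CPM, 17 were also among the 30 highest per kb. The median exon length was 3622 bases in the first set and 1461.5 bases in the second, against 3342 bases over all genes at 1 CPM or more. LOC101056014 (3492 ± 339 CPM) had no length in the annotation used and stands on the CPM scale alone.

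**Figure D1:**
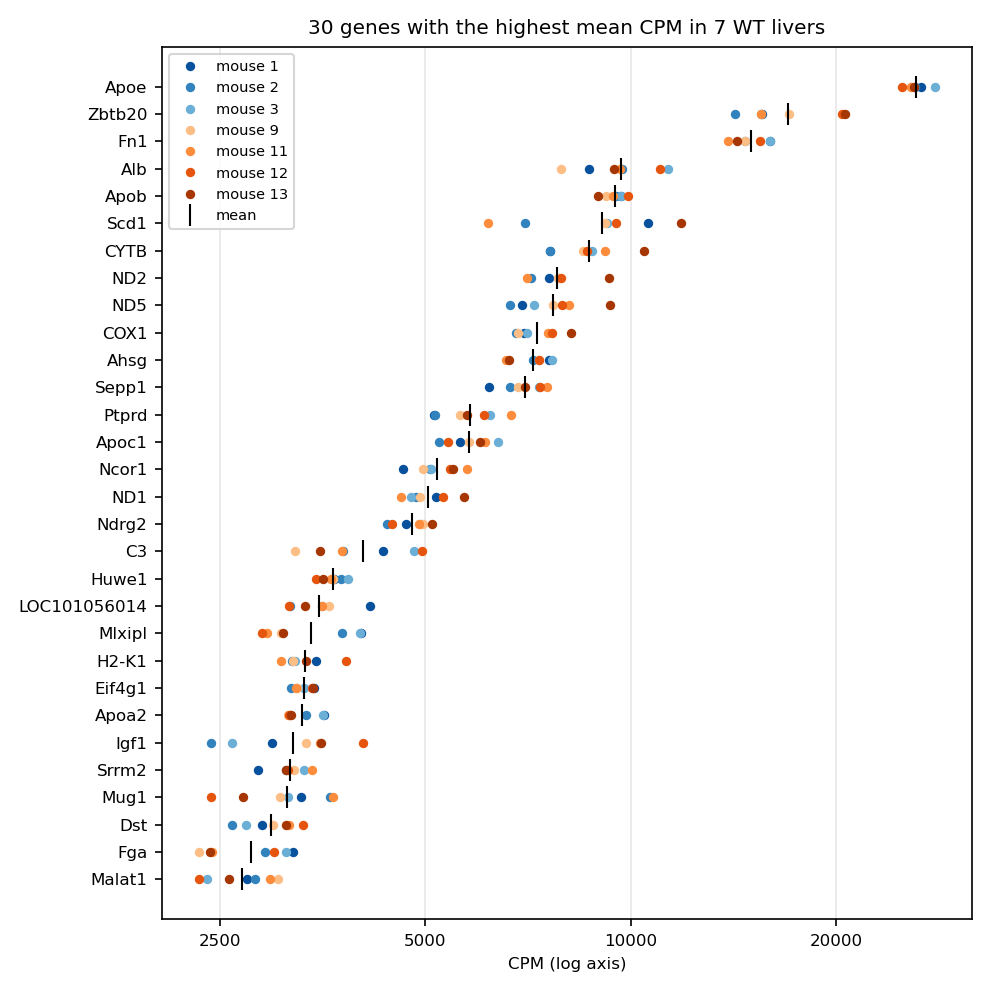
CPM (log axis) of the 30 genes with the highest mean CPM in the 7 WT livers, 1 point per mouse and a bar at the mean, with mice 1 to 3 in blue and mice 9 to 13 in orange. Apoe stands alone at about 26197 CPM, the points of Eif4g1 lie on each other and those of Scd1 spread from 6175 to 11856 CPM.

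The highest genes were much the same in the other genotypes. Of the 30 highest in WT, 28 were among the 30 highest in Het and 27 in Homo. With edgeR's quasi-likelihood test and Benjamini-Hochberg adjustment, 79 of 16463 genes were called in Homo against WT (0.48%; 0.292% higher and 0.188% lower) and 4 in Het against WT (0.0243%; 0.0182% higher and 0.00607% lower). None of the 30 highest genes was among them. At an unadjusted p under 0.05 stood 8 of the 30 in Homo and 6 in Het, against 12.9% and 8.84% of all genes tested. DESeq2 called 3 of the 30 lower in Homo, against 0.844% of all genes, and none in Het. The count of 79 in Homo depends on single mice and fell to between 35 and 49 without mouse 1, 3, 10, 13, 15 or 16 and rose to 122 without mouse 12. A gene that misses the threshold is not shown to be equal: Apoe, at 24019 ± 1360 CPM in Het and 23111 ± 1324 in Homo (n = 6 each), differed from WT by -0.18 on the log2 scale in Homo (adjusted p = 0.071).

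Pkd1 itself does not check the genotype labels, since the count is summed over all its exons, altered or not, and over all cells of the tissue. It was at 328, 391, 412, 419, 411, 451 and 424 CPM in WT mice 1, 2, 3, 9, 11, 12 and 13, rank 392. Mouse 1 was lowest and the other mice lay close together. Its partner channel Pkd2 was at 18.2 ± 5.03 CPM. Per kb, Pkd1 stood at 80.0 and Pkd2 at 10.1.

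Counts were next summed over 49 lists of cell type and pathway genes, 1189 genes in all, which together held 31.1 ± 0.71% of the counts and 50.8 ± 0.62% of the per kb total. The 7 lists of secreted hepatocyte proteins (carriers, apolipoproteins, complement, coagulation, acute phase, serpins and major urinary proteins) held 13.3 ± 0.45% of the counts with 154 genes. The 5 lists of lipid and glucose metabolism held 4.25 ± 0.38%, and the 4 lists of detoxification, amino acid breakdown and bile acids 3.64 ± 0.06%. The 10 lists for cells other than hepatocytes held 0.259 ± 0.021% with 164 genes. The secreted proteins held 12.9 ± 0.44% in Het and 12.8 ± 0.32% in Homo. Lipid and glucose metabolism held 4.07 ± 0.62% and 3.92 ± 0.35% there. Detoxification, amino acid breakdown and bile acids held 3.62 ± 0.13% and 3.49 ± 0.16%. The non-hepatocyte lists held 0.248 ± 0.011% and 0.264 ± 0.014%. Only the non-hepatocyte mean in Homo was above its WT mean, and differences of these sums were not tested. Lists differ in length and in how many genes they name, so that shares compare mice with each other better than lists with each other.

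Within the secreted proteins, apolipoproteins held 5.13 ± 0.14%, plasma carriers 4.07 ± 0.18%, coagulation factors 1.40 ± 0.09%, complement 1.23 ± 0.11% and acute phase proteins 0.573 ± 0.10%. All 21 apolipoprotein and lipoprotein genes were at 10 CPM or more. The apolipoprotein share was steady (CV 2.82%) and stood between 4.92% and 5.34% in each WT mouse. In Het it was 4.82 ± 0.20% and in Homo 4.69 ± 0.18% (n = 6 each). Every Homo mouse, at 4.84% or less, was below the lowest WT mouse. How common this is among the lists was not counted. By edgeR, 0 of its 21 genes were called in Homo against WT, with 7 at an unadjusted p under 0.05 (all genes 12.9%). DESeq2 called 4 of them lower (all genes 0.844%). The acute phase share was less steady (CV 17.7%). The inter-alpha-trypsin inhibitor chain Itih4 had the highest CPM in it (2578 ± 670), while per kb Hamp stood above it (2594 against 2110). Itih4 was highest in mouse 12 (3585), where C3 (4940) and the haptoglobin gene Hp (727 CPM) were highest as well.

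Among the metabolic lists, fatty acid and triglyceride synthesis held 2.07 ± 0.35% (CV 16.8%) and fatty acid oxidation 0.81 ± 0.10% (CV 12.4%). Per kb these shares were 1.36% and 0.786%. The synthesis share was 2.63% in mouse 1 and 1.55% in mouse 11, and Scd1 was its highest member by CPM. Cpt1a, the entry step of mitochondrial fatty acid oxidation, was at 1475 ± 242 CPM. Cps1 of the urea cycle was at 2299 ± 195 CPM and Cyp2e1, the P450 enzyme that activates CCl4, at 1517 ± 274. Cyp2e1 was lowest in mouse 1 (1034) and highest in mouse 11 (1979). The list of antioxidant and NRF2 target genes varied least of all 49 between WT mice, at 0.373 ± 0.005% (CV 1.35%), with the catalase gene Cat at 1710 ± 78.1 CPM.

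Genes of both ends of the liver lobule were well counted. All 6 periportal markers stood at 105 CPM (Hal, histidine breakdown) or more. The 6 pericentral markers ran from 24.0 CPM (Oat, ornithine breakdown) to Cyp2e1, with the glutamine synthetase gene Glul at 147 ± 34.3 CPM.

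Matrix genes held 1.59 ± 0.08% of the counts, nearly all of it Fn1. Without Fn1 the other genes of the list held 0.0827 ± 0.016%. Dcn (decorin) was at 152 ± 25.4 CPM and Col14a1 at 116 ± 11.9. Of the scar collagens, Col1a1 was at 21.9 ± 9.70 CPM, between 10.9 and 33.4, and Col3a1 at 35.4 ± 9.62. Acta2, the actin of myofibroblasts, was at 2.20 ± 0.97 CPM, while Reln, a stellate cell gene, was at 115 ± 21.6. Reln, Col1a1 and Col3a1 are long genes, and per kb they stood at 28.6, 10.8 and 18.5.

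Macrophage genes held 0.0836 ± 0.012%. The Kupffer cell marker Clec4f was at 18.9 ± 1.49 CPM and Cd5l at 31.9 ± 3.30. Trem2 and Gpnmb, markers of lipid-associated macrophages, were at 2.22 ± 1.24 and 17.5 ± 8.46 CPM. The macrophage share was highest in mouse 2 (0.104%), where Spp1, an osteopontin gene of macrophages and bile duct cells, was highest too (148 CPM against 50.4 to 121 in the other mice). Cd74, the class II chain listed with B cells but also made by macrophages, was at 142 CPM in mouse 2 and between 64.5 and 105 in the others. Endothelial genes held 0.0740 ± 0.002% with little spread (CV 2.85%), led on both scales by Eng (113 ± 5.60 CPM, 91.6 per kb) and with Stab2, a scavenger receptor of sinusoidal cells, at 52.0 ± 1.69.

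Genes of lymphocytes, neutrophils and dividing cells were near the lower end. T and NK cell genes held 0.0018 ± 0.0003% and 0 of 22 reached 10 CPM. The 9 genes counted for B and plasma cells held 0.0100 ± 0.0026%. Another 2 genes named for T and NK cells and 7 named for B and plasma cells are absent from the deposited counts under the symbols used. The lymphocyte shares leave these genes out. Cd3e was at 0.62 ± 0.21 CPM and Cd8a at 0.51 ± 0.39. The 13 neutrophil genes held 0.0027 ± 0.0005%, and 1 of them, Csf3r, reached 10 CPM. Ly6g, the neutrophil surface marker, had no count in any of the 7 libraries. S100a8 was at 1.19 ± 0.65 CPM and S100a9 at 1.52 ± 0.74. Dividing cell genes held 0.0052 ± 0.0002%, with Mki67 at 8.62 ± 1.84 CPM. Bile duct markers were low as well: Krt19 was at 1.19 ± 0.87 and Krt7 at 0.27 ± 0.17 CPM. None of the 62 immune genes tested was called in Homo against WT by edgeR or DESeq2 (6 at an unadjusted p under 0.05, against 12.9% of all genes). Of the 133 genes tested in the 10 non-hepatocyte lists, 4 were called higher in Homo (Krt7, Krt19, Muc1 and Tspan8, all on the bile duct list), against 0.292% of all genes tested. Krt19, a keratin of bile duct cells, was at 6.75 ± 2.96 CPM in Homo (adjusted p = 0.00305), and Krt7 at 2.28 ± 1.20. The calls of Krt19 and Krt7 held without any 1 mouse, that of Muc1 ended without mouse 1, 2, 3, 10, 15 or 16, and that of Tspan8 without mouse 1, 3, 10, 11, 13 or 15. The pancreas list held 0.0002% in WT and up to 0.0376% in a Homo mouse (0.0103 ± 0.016%), and its part in the Homo comparison was not tested.

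Red blood cell genes gave an uneven picture. Alas2, the heme synthesis enzyme of red cell precursors, was at 43.4 ± 4.40 CPM. The adult globin gene Hbb-bs was at 0.43, 0.37, 0.15, 3.55, 0.22, 2.02 and 3.38 CPM in mice 1, 2, 3, 9, 11, 12 and 13, so that mice 9, 12 and 13 were above the others. Hba-a1 had at most 4 counts in a library. Globin genes have near-identical copies, so their counts are uncertain where the counting could split or drop shared reads.

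**Figure D2:**
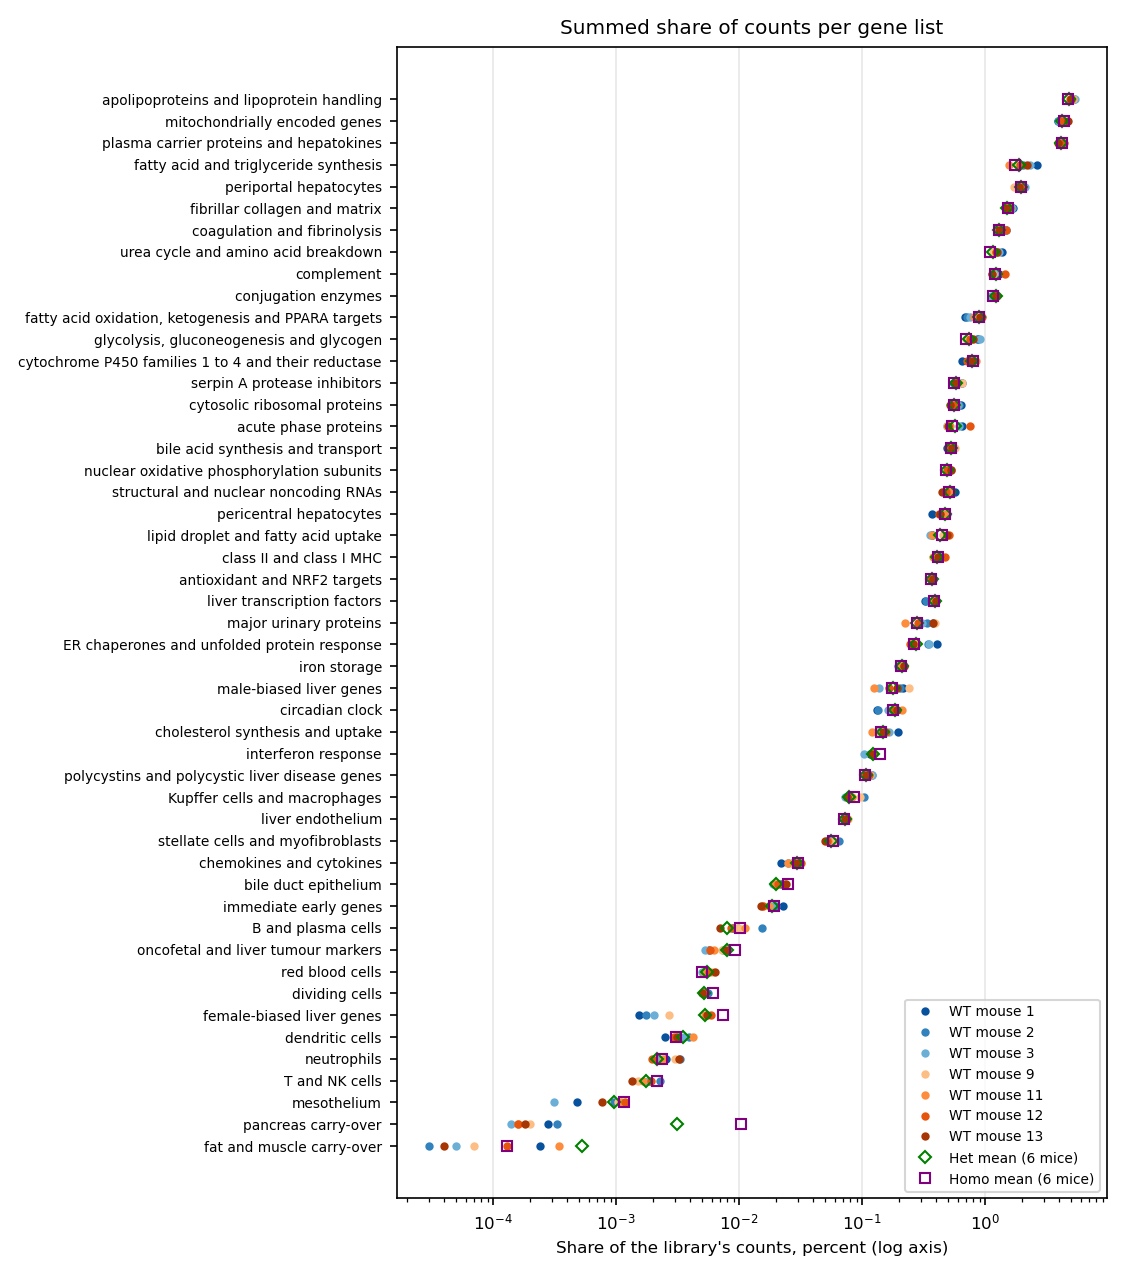
Share of each library's counts (percent, log axis) held by 49 gene lists, with 1 point per WT mouse, green diamonds for the Het mean and purple squares for the Homo mean (6 mice each). Apolipoproteins lead at 5.13% in WT, the endothelial and macrophage lists lie at 0.0740% and 0.0836%, and the fat and muscle list is lowest.

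Spread between the 7 mice was measured as the coefficient of variation (CV, SD over mean) of CPM for the 7639 genes at 10 CPM or more. The median CV was 11.4% (quartiles 7.94% and 16.5%), close to 11.2% in Het and 10.6% in Homo. Counting alone gives a median CV of 2.73%. A CV over 50% was found for 84 genes (1.10%) and a CV under 5% for 399 (5.22%). The genes at either end were chosen by their CV in these mice, so that their WT values are a description. The Het and Homo mice took no part in the choice.

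**Figure D3:**
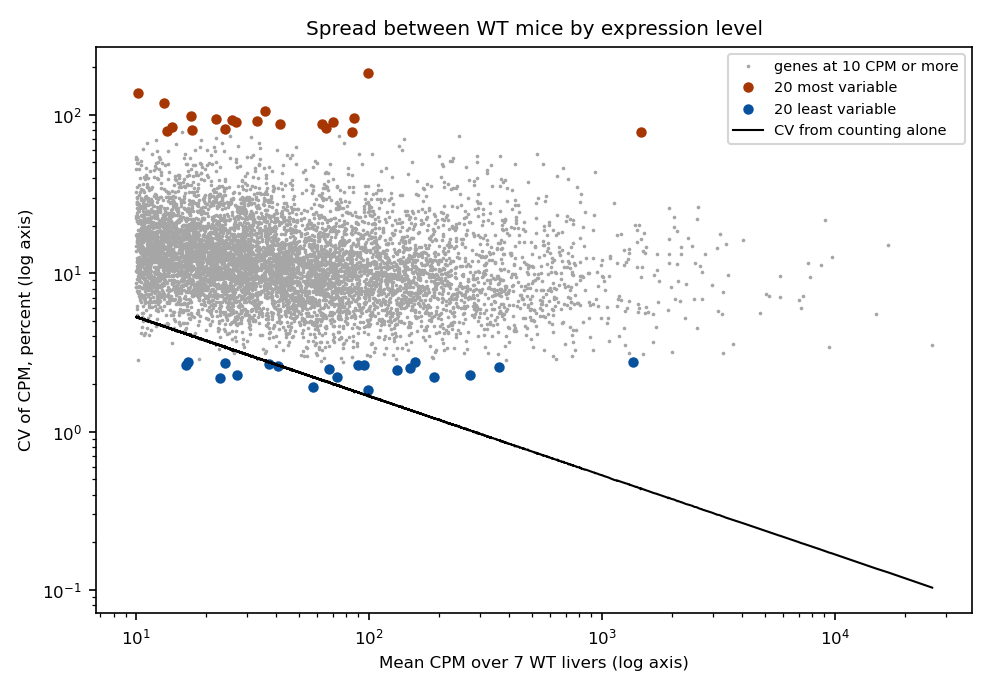
CV of CPM over the 7 WT livers (percent, log axis) against mean CPM (log axis) for 7639 genes, with the 20 most variable genes in brown, the 20 least variable in blue and the CV that counting alone gives as a line. The most variable genes lie at 78.1% or more at every level up to Lpin1, and the least variable ones lie at 1.84% to 2.75%.

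The 20 most variable genes had CVs from 184% to 78.1%, and the next gene stood at 77.6%. All 20 were also in the top 10% of CV in the Het mice (median of the 20, 62.3%) and in the Homo mice (55.4%). By what each is known to do, they include urinary pheromone carriers (Mup7, Mup14, Mup17), fat metabolism (Elovl3, Acot3, Lpin1), the clock (Arntl), the acute phase (Saa2), nuclear regulators (Onecut1, Zbtb16, Nr0b2), signalling (Erbb4, Dab1, Rgs16, Igfbp1), a calcium pump (Atp2b2), a selenium-binding protein (Selenbp2), a serpin (Serpina3c) and a mucosal scavenger protein (Dmbt1). No role is given here for LOC108168411.

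Several of these genes were high or low in a single mouse. Mup17 was at 12.2, 5.50, 3.17, 47.9, 7.28, 4.04 and 12.4 CPM in mice 1, 2, 3, 9, 11, 12 and 13, high in mouse 9 alone. Selenbp2 was also highest in mouse 9 (116 CPM) and lowest in mouse 3 (2.23 CPM). Mup14 and Mup7 were also highest in mouse 9 (103 and 203 CPM). Mup14 was lowest in mouse 11 (1.06 CPM) and Mup7 in mouse 3 (11.2).

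Mup20 (darcin), a male-biased liver gene, was at 823, 627, 351, 852, 76.7, 506 and 673 CPM, so that mouse 11 stood far below the other mice. The 12 genes of the male-biased list, Mup20 included, held 0.239% in mouse 9 and 0.124% in mouse 11. Without Mup20, a step added after the values were seen, the other 11 held 0.152% in mouse 9, the highest, and 0.116% in mouse 11, where mouse 3 was lowest with 0.103%. Cyp2a4, a female-biased P450, was highest in mouse 11 (12.6 CPM against 0.55 to 4.36 in the others), as were Onecut1 (77.4 against 5.99 to 30.6) and Mup10 (6.50 against 0.03 to 0.31). The major urinary protein genes and the Cyp2a genes have near-identical copies, and their single values are uncertain where shared reads could be split. Mup3, the most abundant of them, varied little (2504 ± 289 CPM, CV 11.5%).

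Saa2, a serum amyloid A of the acute phase, was at 208 CPM in mouse 1 and between 22.8 and 76.2 in the others. It shares near-identical sequence with Saa1. Saa2 had a CV of 90.8% in Het and 44.5% in Homo. Lpin1, an enzyme of triglyceride synthesis that is also induced by fasting, had the highest level of the 20 by CPM and was also above the others per kb where a length was known (686). It was at 2599, 2263, 2906, 367, 1499, 327 and 297 CPM in mice 1, 2, 3, 9, 11, 12 and 13. Mice 1 to 3 were high, mouse 11 was intermediate and mice 9, 12 and 13 were low.

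**Figure D4:**
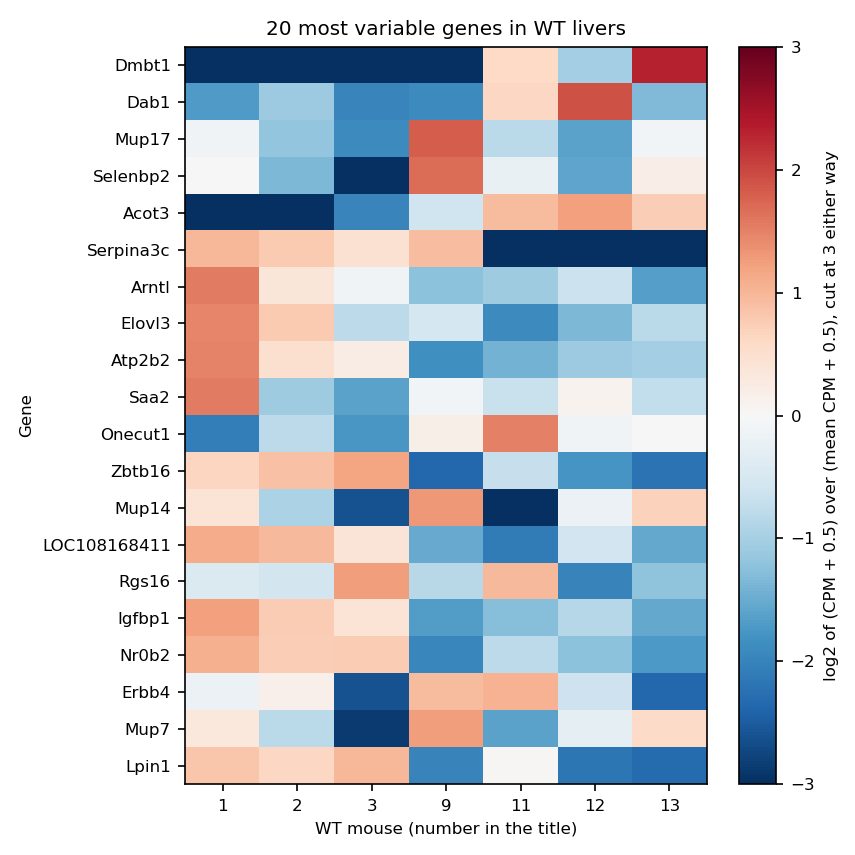
The 20 most variable genes (rows) in the 7 WT livers (columns, by title number), coloured by the log2 ratio of CPM + 0.5 to the mean CPM + 0.5, red above and blue below the mean. Dmbt1 is dark blue in mice 1, 2, 3 and 9 and Serpina3c in mice 11, 12 and 13, while Arntl, Atp2b2, Zbtb16, Igfbp1 and Nr0b2 are red in mice 1 and 2 and blue in mice 9 to 13.

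Dmbt1 and Serpina3c were close to present or absent. Dmbt1 (chromosome 7, 131032053 to 131121630, GRCm38), a secreted scavenger protein of epithelia, had 0 counts in mice 1, 2, 3 and 9 and 5457, 1599 and 16562 counts in mice 11, 12 and 13 (152, 48.9 and 495 CPM). A count of 0 in a library allows up to 3 counts. In the other genotypes it ran from 0.93 to 311 CPM in Het and from 28.6 to 383 CPM in Homo. Dmbt1 was not called in Homo against WT (adjusted p = 0.75).

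Serpina3c (chromosome 12, 104146382 to 104153870), a serine protease inhibitor, was at 173, 150, 119 and 164 CPM in mice 1, 2, 3 and 9 and had 4, 4 and 2 counts in mice 11, 12 and 13. The Het and Homo mice, which had no part in choosing it, were divided at the same place in the title numbers. Mice 4, 6, 7, 8 and 10 were at 93.8, 335, 137, 157 and 151 CPM. Mice 14 to 20 were all at or below 0.25 CPM. The division therefore followed the number and crossed the genotypes.

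How common such a division is was then counted, a step added after these values were seen. Of 8327 genes that reach 10 CPM in a WT mouse, 34 (0.408%) had the 9 mice numbered 1 to 10 entirely apart from the 10 mice numbered 11 to 20, 15 higher in the first and 19 in the second. Only Serpina3c had its groups apart by over 2 times, lowest against highest mouse. Of the 33 such genes with a position, 5 lay on chromosome 12, all of them between 101645443 and 104394257. That span is set by the 5 genes themselves and holds 26 of the 8222 genes checked that have a position. Of the 5, 4 were serpins. Serpina3m was at 335, 302, 295 and 343 CPM in WT mice 1, 2, 3 and 9 and at 130, 97.6 and 89.7 in mice 11, 12 and 13. Serpina11 was at 71.2 CPM or more in the first 4 mice and at 52.9 or less in the last 3. Serpina1d went the other way, with 461, 404, 455 and 419 CPM against 776, 747 and 768. The remaining gene, Tc2n, was at 13.7 to 19.9 CPM against 22.9, 24.7 and 29.97.

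Het mouse 6 was at the far end of the first side for all 5 genes. It had the highest Serpina3c (335 CPM), Serpina3m (652 CPM) and Serpina11 (133 CPM) of all 19 mice, and the lowest Serpina1d (146 CPM) and Tc2n (7.55 CPM). The serpin A genes of mouse are a family of close copies, and Serpina1d and Serpina3m in particular can share reads with their neighbours. The 15 genes of the list held 0.601 ± 0.039% of the counts.

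**Figure D5:**
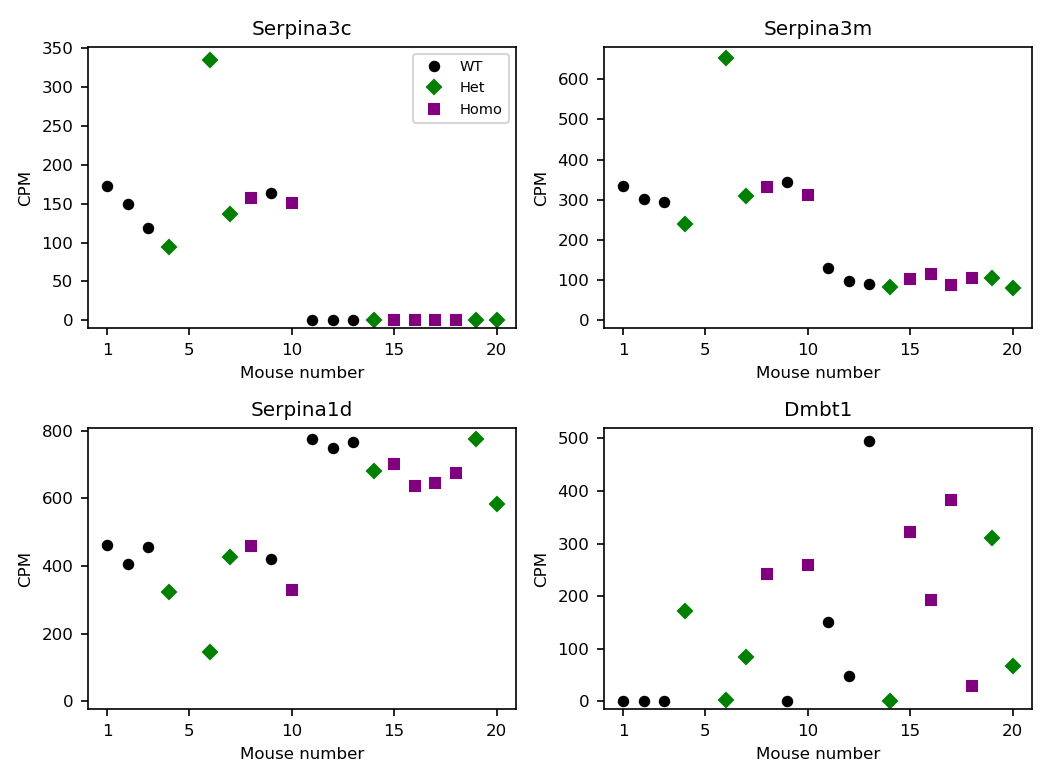
CPM of Serpina3c, Serpina3m, Serpina1d and Dmbt1 in all 19 mice by title number (WT black circles, Het green diamonds, Homo purple squares). The 3 serpins change level between mouse 10 and mouse 11 in every genotype, Het mouse 6 lies at one end for each of them, and Dmbt1 shows no such step.

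At the other end, the 20 least variable genes had CVs of 1.84% to 2.75%, and the next gene stood at 2.76%. Their counting CV had a median of 1.86% and ran from 0.455% (Birc6) to 4.14% (Naa15). Where the counting CV is above 2.75%, as for Naa15, the observed spread was smaller than counting alone gives. The counts do not resolve how steady such genes are. Atl3, which shapes the endoplasmic reticulum (ER), was at 103, 100, 100, 98.3, 99.1, 98.0 and 97.4 CPM in mice 1, 2, 3, 9, 11, 12 and 13. Birc6, an inhibitor of apoptosis with 15837 bases of exon, had the highest CPM of the 20 (1357 ± 37.2), while per kb Atp5b stood above it (409 against 248). The others include the translation factor Eif5b (57.6 ± 1.10 CPM), Atp5b of the ATP synthase (270 ± 6.18), the translocon protein Sec62 (150 ± 3.79), the nonsense-mediated decay kinase Smg1 (132 ± 3.21), the proteasome activator Psme1 (27.2 ± 0.62) and the actin regulators Nckap1 (189 ± 4.18) and Cap1 (89.9 ± 2.38).

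The choice of these 20 carried over only in part. Their median CV was 8.05% in Het and 5.69% in Homo, against 11.2% and 10.6% for all genes, and 5 and 9 of the 20 were in the lowest 10% there. Leaving out 1 WT mouse kept 7 to 11 of the 20 in the set. Ankrd46, at 2.18% in WT, had a CV of 14.6% in Het. Atl3 remained steady at 3.25% in Het and 5.31% in Homo. None of the 20 was called in Homo or in Het against WT by edgeR or DESeq2, with 3 and 1 at an unadjusted p under 0.05.

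Many genes set mice 1 to 3 apart from mice 9 to 13. The groups did not overlap in CPM for 24.1% of the genes at 10 CPM or more. In a fit of these 7 mice, edgeR called 468 of 16153 genes (2.9%), 248 higher and 220 lower in mice 9 to 13, with 2894 at an unadjusted p under 0.05 and 1309 called by DESeq2. The numbers in the titles are the only label that makes this split, which was chosen with earlier results of these mice known, and its p-values describe these 7 mice. The count depends on single mice: it was 88 without mouse 1, 134 without mouse 2, 281 without mouse 3, 278 without mouse 12 and 106 without mouse 13. Of the 468 genes, 66 stayed called whichever mouse was left out. None of the 131 genes tested on the 10 lists of other cell types was called, with 15 at an unadjusted p under 0.05 (all genes 17.9%) and 4 called by DESeq2. The summed macrophage, endothelial and stellate shares overlapped between the 2 sets of mice.

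Other summed shares did not overlap between these sets, as was the case for 24.1% of single genes at 10 CPM or more. Mitochondrially encoded genes held 3.91% in mice 1 to 3 and 4.29% in mice 9 to 13. All 9 of those tested had a positive change, against 50.3% of all genes. Cytosolic ribosomal protein genes held 0.613% and 0.552%, structural and nuclear noncoding RNAs 0.533% and 0.485%, and immediate early genes 0.0203% and 0.0160%. The matrix list, nearly all Fn1, held 1.65% and 1.54%, and apolipoproteins 5.27% and 5.04%. Lipid droplet and fatty acid uptake genes held 0.365% and 0.455%, and glycolysis, gluconeogenesis and glycogen genes 0.879% and 0.757%. Liver transcription factors held 0.342% and 0.393%, and the list of polycystins and polycystic liver disease genes 0.118% and 0.111%. The ER chaperone, clock, fatty acid oxidation and female-biased lists, described below, did not overlap either. All other lists overlapped. With 24.1% of single genes apart, a lack of overlap alone is not read as a result about the genes of a list. The part of the shares given here in the gene groups that follow was not tested.

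Cyp7a1, the rate-limiting enzyme of bile acid synthesis, was at 54.7, 91.3 and 62.2 CPM in mice 1 to 3 and at 380, 230, 437 and 453 in mice 9, 11, 12 and 13. It was higher by 2.43 ± 0.27 (log2, SE, adjusted p = 0.00544), and the call held without any 1 mouse. Nr0b2 (SHP), the nuclear receptor that represses Cyp7a1, went the other way, from 36.6, 29.1 and 29.8 CPM to 4.08, 9.81, 7.10 and 4.90 (-2.30 ± 0.27, adjusted p = 0.0061). Hamp, the iron hormone hepcidin, rose from 217, 173 and 107 CPM to 526, 625, 514 and 404, and its call ended without mouse 2 (adjusted p = 0.052). Socs2, a feedback inhibitor of growth hormone signalling, rose by 2.10 ± 0.27. Igfbp1, an IGF-binding protein that insulin represses, fell by 2.20 on the log2 scale. Zbtb16 fell by 2.55. Tat, which breaks down tyrosine, fell by 1.34, from 1054, 578 and 782 CPM to 226, 323, 396 and 326. The call of Tat ended without mouse 1 or mouse 13. In the other genotypes Cyp7a1 ran from 74.7 to 574 CPM in Het and from 261 to 530 in Homo.

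Acot3, a peroxisomal thioesterase, had the largest change among called genes at 10 CPM or more, 3.97 ± 0.73 (adjusted p = 0.0266). It was at 0.25, 1.36 and 3.96 CPM in mice 1 to 3 and at 11.2, 33.5, 41.1 and 29.0 in the others. Its call ended in 4 of the 7 fits that left out 1 mouse (mouse 1, 2, 12 or 13).

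ER chaperones and the unfolded protein response, the program by which a cell raises its folding capacity, were lower in mice 9 to 13. Of 24 genes on that list, 12 were called lower and 0 higher, against 1.36% of all genes called lower, and 22 had a negative log2 change (median -0.55, against 0.00 over all genes). Hspa5 (BiP, the main ER chaperone) was at 480, 384 and 344 CPM in mice 1 to 3 and at 242, 210, 170 and 198 in mice 9, 11, 12 and 13 (-0.98 ± 0.14, adjusted p = 0.0134, lost without mouse 13 at 0.052). Calr (calreticulin), a lectin chaperone, went from 278, 196 and 206 to 145, 133, 139 and 137 CPM. Creld2, an ER folding factor, went from 9.64 CPM or more to 5.92 or less, and Syvn1, the ubiquitin ligase of ER-associated degradation, from 105 or more to 68.4 or less. Ddit3 (CHOP) fell by 1.23 on the log2 scale, a call that ended without mouse 1, 2, 9, 11 or 13 (adjusted p up to 0.117). Dnajb9, an ER co-chaperone, was at 51.3, 51.3 and 51.5 CPM against 21.2, 23.3, 21.2 and 16.4. The call of Calr ended without mouse 13 and that of Creld2 without mouse 1 or 2, and those of Syvn1 and Dnajb9 held. Calr, Creld2, Syvn1 and Dnajb9 were chosen as examples after their values were seen. Without mouse 1 the list had 4 calls, without mouse 2 it had 5, without mouse 12 it had 8 and without mouse 13 it had 3. In each of the 7 fits that left out 1 mouse, 22 of the 24 genes had a negative change, with medians from -0.62 to -0.42.

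Several promoters of this list share a short motif, and 4 are shown because their genes were called lower and hold it. The ER stress element is CCAAT and CCACG with 9 bases of any kind between them, and factors of the unfolded protein response bind it. Either strand counts. The element was searched in the 250 bases before each RefSeq start site (GRCm38.p6). It stood in 8 of the 21 genes of the list that have a promoter in that table (Calr, Canx, Creld2, Dnajc3, Hsp90b1, Hspa5, Pdia6 and Syvn1), and in 0.13% of all 27025 genes (0.113% of 32851 promoters). Of the 8, 5 are among the 12 genes called lower, and Canx, Dnajc3 and Pdia6 were not called. How often the list holds the element is a trait of its promoter sequences. It would be the same whatever these mice showed. The match, in capitals, begins 65 bases before the start in Hspa5, 162 in Calr, 126 in Creld2 and 44 in Syvn1. In Calr and Creld2 it lies on the other strand and reads as the reverse complement. A match says nothing about whether a factor was bound in these livers.
Hspa5 (chr2:34771840-34772089, plus strand): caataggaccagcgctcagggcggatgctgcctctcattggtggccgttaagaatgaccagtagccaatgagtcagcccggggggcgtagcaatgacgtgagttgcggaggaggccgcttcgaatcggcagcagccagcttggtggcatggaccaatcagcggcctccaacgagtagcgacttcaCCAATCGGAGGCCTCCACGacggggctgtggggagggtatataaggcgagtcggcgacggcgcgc
Calr (chr8:84846932-84847181, minus strand): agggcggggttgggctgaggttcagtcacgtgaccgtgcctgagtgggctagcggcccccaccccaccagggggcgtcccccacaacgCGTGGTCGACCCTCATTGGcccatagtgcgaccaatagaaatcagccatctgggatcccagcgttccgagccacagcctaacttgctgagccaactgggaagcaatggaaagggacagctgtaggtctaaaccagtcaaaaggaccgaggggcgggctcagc
Creld2 (chr15:88819396-88819645, plus strand): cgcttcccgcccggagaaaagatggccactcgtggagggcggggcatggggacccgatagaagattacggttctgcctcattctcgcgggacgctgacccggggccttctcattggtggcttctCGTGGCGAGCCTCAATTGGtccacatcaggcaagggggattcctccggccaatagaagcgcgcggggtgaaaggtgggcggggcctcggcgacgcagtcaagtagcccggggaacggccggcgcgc
Syvn1 (chr19:6046326-6046575, plus strand): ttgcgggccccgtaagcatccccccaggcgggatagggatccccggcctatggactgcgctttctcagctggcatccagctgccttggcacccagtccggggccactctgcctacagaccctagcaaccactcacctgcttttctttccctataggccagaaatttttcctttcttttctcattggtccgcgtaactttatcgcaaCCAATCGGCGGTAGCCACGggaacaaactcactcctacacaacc

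Clock genes were on both sides. Of 19 tested, 7 were called higher in mice 9 to 13 (among them Cry2, Tef, Bhlhe41, Per2, Dbp and Per3) and 4 lower (Npas2, Arntl, Nr1d1 and Clock), against 1.54% and 1.36% of all genes. Arntl (BMAL1), the positive arm of the clock, was at 65.4, 28.6 and 20.3 CPM in mice 1 to 3 and at 9.03, 10.2, 13.8 and 6.66 in mice 9 to 13. Per3, of the negative arm, was at 89.7, 92.9 and 147 CPM against 276, 333, 228 and 295. The clock output factor Dbp was at 68.4, 67.9 and 112 CPM against 203, 186, 184 and 208. The call of Arntl ended in 6 of the 7 fits without 1 mouse (all but mouse 3), that of Per3 without mouse 1 or 2 and that of Dbp without mouse 1. Within mice 1 to 3, mouse 3 lay nearest to the second set for Per3, Dbp and Arntl. The labels give no time of day. The calls rest on few mice: without mouse 1 none of the 19 was called, without mouse 2 there was 1, without mouse 9 there were 5, without mouse 11 there were 7, without mouse 12 there were 4 and without mouse 13 there were 3. Cry2, Bhlhe41, Per2, Dbp, Npas2 and Nr1d1 are outside the naming rule and were named because they are part of these counts.

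The E-box CACGTG, the motif that the ARNTL and CLOCK proteins bind, was searched in the same windows. It stood in 6 of the 16 clock genes with a promoter (Bhlhe41, Ciart, Cipc, Cry1, Per1 and Tef), and in 6.86% of all 27025 genes (6.02% of 32851 promoters). Of the 6, Bhlhe41 and Tef were called and Ciart, Cipc, Cry1 and Per1 were not. This count too is a trait of the sequences and does not depend on these mice. The motif is its own reverse complement, so that a match counts for both strands. A promoter of Tef, a gene called higher in mice 9 to 13 (180, 185 and 284 CPM against 336, 353, 375 and 348, adjusted p = 0.0488, lost without each of 6 mice), is shown with its match in capitals, 127 bases before the start. Tef has 2 annotated starts, and the promoter with the most matches was taken.
Tef (chr15:81802423-81802672, plus strand): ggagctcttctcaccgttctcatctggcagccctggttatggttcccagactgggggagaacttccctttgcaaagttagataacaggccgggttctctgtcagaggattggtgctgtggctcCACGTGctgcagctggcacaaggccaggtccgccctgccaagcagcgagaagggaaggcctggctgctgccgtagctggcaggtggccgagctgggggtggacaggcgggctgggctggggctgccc

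Some genes of fat metabolism were called along the same line, with fewer calls. The summed fatty acid oxidation share did not overlap, at 0.716% in mice 1 to 3 and 0.881% in mice 9 to 13. The synthesis share overlapped, with 2.02% in mouse 2 and 2.18% in mouse 13. Of 28 genes of fatty acid oxidation, 5 were called higher in mice 9 to 13 (among them Acaa1a, Acot3, Acot4 and Cpt1a), against 1.54% of all genes, and 21 had a positive change (median 0.15). Cpt1a was at 1247, 1200 and 1276 CPM against 1695, 1444, 1689 and 1773 (0.41 ± 0.08, adjusted p = 0.0323), a call that ended in 6 of the 7 fits without 1 mouse (all but mouse 11, adjusted p up to 0.111). None of the 28 was called without mouse 1, 2 or 13, 1 without mouse 12, and 2 without mouse 3 or 9. Of 24 genes of fatty acid and triglyceride synthesis, 3 were called lower (Acaca, Lpin2 and Mlxipl), against 1.36% of all genes, and 1 was called without mouse 1. The call of Lpin2 held without any 1 mouse and that of Acaca was lost without each. Mlxipl was at 4026, 3774 and 4002 CPM against 3068, 2929, 2878 and 3089 (-0.40 ± 0.06, adjusted p = 0.0123, and 0.062 without mouse 1). Scd1 did not divide the mice this way, with 6990 CPM in mouse 2 and 11856 in mouse 13.

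Of the 30 highest genes, Igf1 was called higher (0.43 ± 0.09, adjusted p = 0.0494, lost without any 1 of the 7 mice) and Mlxipl lower, against 2.9% of all genes. The 20 most variable genes were chosen for their spread in these same mice, so that their calls are no support for the split. These calls were 7: Acot3 higher and Arntl, Atp2b2, Zbtb16, LOC108168411, Igfbp1 and Nr0b2 lower. The changes and p-values given above for any of these genes only describe these mice.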

How the data were processed

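Per the labels' protocols, total RNA was extracted with Trizol and a Qiagen RNeasy kit and made into libraries with the NuGen Ovation Mouse RNA-Seq kit. For the 19 libraries the authors deposited raw gene counts in 1 table. The submitters' processing notes name STAR 2.7.2b, featureCounts 1.6.4 and the build GRCm38. Which annotation and strand setting were used, and how reads that match several places were handled, is not given in the sources used here, so counts of overlapping genes and of near-identical copies are uncertain. Rows whose symbols read as dates (27, at about 0.150% of the counts) stayed in the totals and are not named.

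From these counts, CPM was computed with TMM library sizes. Levels per kb used exon lengths of GENCODE vM21 (GRCm38), found for 12569 of the 13186 genes at 1 CPM or more. Genotypes were compared in 1 edgeR 4.0.16 quasi-likelihood fit of all 19 libraries, and WT mice 9 to 13 with mice 1 to 3 in a fit of the 7 WT libraries. Both used edgeR's default filter on low counts and Benjamini-Hochberg adjustment over all genes, with calls at an adjusted p under 0.05. DESeq2 1.42.0, other scalings, other filters and leaving out each mouse were the alternatives. On simulated counts the Homo against WT fit of 16463 genes recovered 47.8% of 1.5-fold and 79.1% of 2-fold changes (3.97% false calls), and the WT split of 16153 genes 11.9% and 58.2% (8.04% false calls). Motifs were counted in RefSeq promoters of GRCm38.p6.

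The genes named in the text are the 30 highest by mean CPM, the 20 most and 20 least variable at 10 CPM or more, up to 4 highest members and the most variable member of each list, cell type markers, members with under 3 counts in every WT library, the 10 largest called changes in each direction of the WT split, named genes called between genotypes, Pkd1 and Pkd2. The other genes named (among them Serpina3m, Serpina11, Serpina1d, Tc2n, ND4, Saa1, Calr, Creld2, Syvn1, Dnajb9, and the further called members and motif holders of a list) were chosen after their values were seen. The members and lists were chosen with earlier results of these data known. Each library comes from 1 mouse, and the smallest chi-square per degree of freedom between 2 WT libraries was 21.6, so no library was a copy of another. Some genes of the lists are not reported here.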

Additional observations from a re-analysis of the deposited data

Results flagged for a closer look

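A value was taken up here when the highest or lowest of the 7 WT mice stood apart from its nearest neighbour by a larger part of the whole range than Dixon's 95% critical value for 7 values. Of 49 list shares, 5 had such a value, and of 83 genes, 9 had one. Chance gives about 1 in 20 for values not chosen by their spread. The 83 genes include the 20 most variable ones, which hold 7 of the 9 (Dmbt1, Dab1, Mup17, Selenbp2, Arntl, Saa2 and Onecut1) and were chosen by their spread in these mice, so that this rate does not apply to them.

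Mouse 13 had 4.75% of its counts in mitochondrially encoded genes, against at most 4.17% in the others, with ND2 at 9287 CPM (next 7907). Mouse 3 was lowest for conjugation enzymes (1.11%, next 1.19%) and for interferon response genes (0.103%, next 0.115%). Mouse 12 was lowest for antioxidant genes (0.363%, next 0.372%), and mouse 2 was highest for dividing cell genes (0.00563%, next 0.00521%).

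Among single genes, Dmbt1 was at 495 CPM in mouse 13 (next 152) and Saa2 at 208 CPM in mouse 1 (next 76.2). Mouse 1 was also highest for Arntl, at 65.4 CPM (next 28.6). Mouse 9 stood out for Mup17 (47.9 CPM, next 12.4) and Selenbp2 (116 CPM, next 41.2), and mouse 11 for Onecut1 (77.4 CPM, next 30.6). Mouse 12 was highest for the adaptor gene Dab1 (39.9 CPM, next 16.0) and, by a small margin, for Iws1 (76.3 CPM, next 73.7), one of the least variable genes.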

How the results depend on the processing

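The ranking kept 29 or 30 of its 30 highest genes under each alternative except the level per kb, which kept 17. The 49 lists together held 31.1% of the counts (30.99 to 31.31 with a mouse left out), 28.2% when mitochondrially encoded genes were left out of the lists and the total, and 50.8% per kb. Of the 20 most variable genes, 13 stayed with the SD of log2 CPM, 3 with genes from 1 CPM on, 7 from 50 CPM on, and 14 to 19 with a mouse left out. Of the 20 least variable, 9 stayed with raw library totals, 8 with the counting part removed, 13 from 50 CPM on, and 7 to 11 with a mouse left out. DESeq2 called 304 genes in Homo against WT (edgeR 79, and 35 to 122 with a mouse left out), 28 in Het against WT (edgeR 4, and 4 to 7) and 1309 in the WT split (edgeR 468, and 88 to 391). Among single genes and single lists, 699 values under alternatives kept their call or size, 114 lost a call and 49 moved. Only the log2 changes of the 41 named called genes of the WT split could turn direction, and 0 did. A list share counted as kept when it moved by less than its SD over the 7 mice. Leaving out 1 mouse cannot move a mean of 7 that far. The list shares with a mouse left out were therefore bound to count as kept and say nothing about stability. They are part of the 699. The causes were not tested. No paired analysis was possible because each title number belongs to 1 mouse and the replicate numbers only follow the order of the records. With 33.1 to 39.9 M counts per WT library, genes below about 1 CPM rest on few counts.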

Other observations

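The polycystin list, 12 genes of polycystins and polycystic liver disease, held 0.114 ± 0.005% of the WT counts (CV 4.71%), and 10 of its genes were at 10 CPM or more.

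The female-biased list held 0.00152, 0.00174, 0.00204, 0.00271, 0.00531, 0.00591 and 0.0055% of the counts in mice 1, 2, 3, 9, 11, 12 and 13, whose sex the labels do not give. Acot3, which is also on the fatty acid oxidation list, is the member at 10 CPM or more. Without Acot3 the other 13 genes held 0.0015, 0.0016, 0.00165, 0.00157, 0.00194, 0.00185 and 0.00265% in the same order, a step chosen after the values were seen.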
